A study of Mus musculus with 2 samples.

Results

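Genes that mark successive stages of the oligodendrocyte lineage, 9 of the 19070 counted in each section, were followed across injured mouse brain. Pdgfra and Cspg4 stood for precursor cells, Olig1, Olig2 and Sox10 for the factors that define the lineage at all stages, and Gpr17, Enpp6 and Bmp4 for cells that have left the precursor state and are forming oligodendrocytes, while Bcas1 was kept apart because mature myelinating cells also carry it. The 9 genes were listed by symbol for these roles with no threshold on a measured value, although earlier results of these data were known when the list was made. They were read as raw counts of unique molecular identifiers (UMIs) in 16 µm squares, called bins here.

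Oligodendrocyte precursors are dividing glial cells spread through grey and white matter. They respond to platelet-derived growth factor through the receptor that Pdgfra encodes, and after loss of myelin they gather, leave the cell cycle and differentiate. On the way they pass through a short stage marked by the G protein-coupled receptor gene Gpr17 and then by Enpp6, which encodes a choline phosphodiesterase, before they make myelin.

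Both mice were male C57Bl6 animals, 3 months old, whose cortex was struck through an opened skull by a piston 3 mm wide to a depth of 2 mm (controlled cortical impact, CCI). One brain was collected 3 days after CCI and the other 28 days after it, and each gave 1 fixed, paraffin-embedded section for Visium HD. No section from a mouse without impact was analysed here, so the opposite side of the same brain served as reference. With 1 section at each time no test between animals was possible, and every interval given is a 95% interval that covers counting error only.

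The section on day 3 held 121967 bins with a median of 836 UMIs, and that on day 28 held 105589 bins with a median of 596. The injured side was the part left of column 130 on day 3 and of column 240 on day 28. A lesion zone was drawn where 6 phagocyte genes exceeded all but the top 1% of values on the opposite side, and it covered 7592 bins on day 3 and 13962 bins on day 28. The mirrored area was its reflection across the midline column, with 7608 and 12876 bins. Bins of the lesion zone were shallower, with a mean of 592 UMIs against 921 in the mirrored area on day 3, and 527 against 651 on day 28. All 5 neuron genes were at least 2-fold lower in the zone at both times. On day 3 59.97% of zone bins but 32.0% of mirrored bins lay in tissue rich in myelin transcripts, so the areas differed in this share. On day 28 these shares were 41.0% and 34.1%.

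The genes differed in how well they marked a stage. Likeness was the Pearson r of levels across tiles of 256 µm, 476 on day 3 and 403 on day 28, averaged over both sections, and up to 3 of the nearest among 11575 genes are named for each member. Bcas1 was nearest to the myelin genes Mbp and Mobp and to Gatm, with r between 0.94 and 0.95. Sox10 was nearest to Gatm, Cldn11 and Pllp, with r between 0.893 and 0.905, and Olig1 to Gatm and Cnp, with r of 0.852 and 0.847. Olig2 followed Bcas1, Pllp and Olig1, near 0.79. Enpp6 followed Slc44a1, Fth1 and Dbndd2, from 0.76 to 0.78, and Gpr17 followed S100a16, Sirt2 and Qki, from 0.52 to 0.54. The nearest genes of Pdgfra were Zfp36l2, Cd81 and Itgb1, from 0.36 to 0.40, and those of Cspg4 were Ilk, Tln1 and Gnai2, from 0.33 to 0.34. Bmp4 was nearest to Ogn, Fmod and Slc13a4, genes of the meninges, with r between 0.63 and 0.66. Tiles of a section share 1 library and neighbour each other, and rare genes give lower r, so these values are a description of likeness and are not ranked between members. Bcas1 and the lineage factors thus mapped mainly with mature myelin, and Bmp4 mapped in good part with the brain coverings. Enpp6 also mapped with myelin, with r of 0.736 to Mbp, 0.746 to Bcas1 and 0.44 to Gpr17, so its place among the newly forming cell genes follows its known role and not its map.

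All 9 genes were higher in the lesion zone than in the mirrored area on day 3, by at least 2-fold in 9 of 9 members, where 17.4% of the 13452 genes with at least 20 UMIs were that much higher and 9.23% that much lower. The median log2 ratio of UMIs scaled to a common library total (CPM) was 1.84 over the members and 0.12 over all genes. On day 28 4 of 9 members, Cspg4, Gpr17, Enpp6 and Bmp4, were at least 2-fold higher, where 16.6% of 13645 genes were and 7.85% were as much lower. The members' median was then 0.66 and that of all genes 0.01. No member was 2-fold lower at either time. Counts per bin, which do not depend on what other transcripts a bin lost, gave smaller ratios, with 6 members at least 2-fold higher on day 3, against 9.31% of all genes, and 2 on day 28, Gpr17 and Bmp4, against 12.8%. Weighting the opposite side to the myelin share of the zone left 2 members at least 2-fold higher on day 3, Cspg4 and Gpr17, against 14.8% of all genes, and 1 on day 28, Bmp4, against 13.7%. Under this weighting the members' counts were therefore near the share of all genes. It matched the share of myelin transcripts after the impact and no other feature of the tissue.

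**Figure D1:**
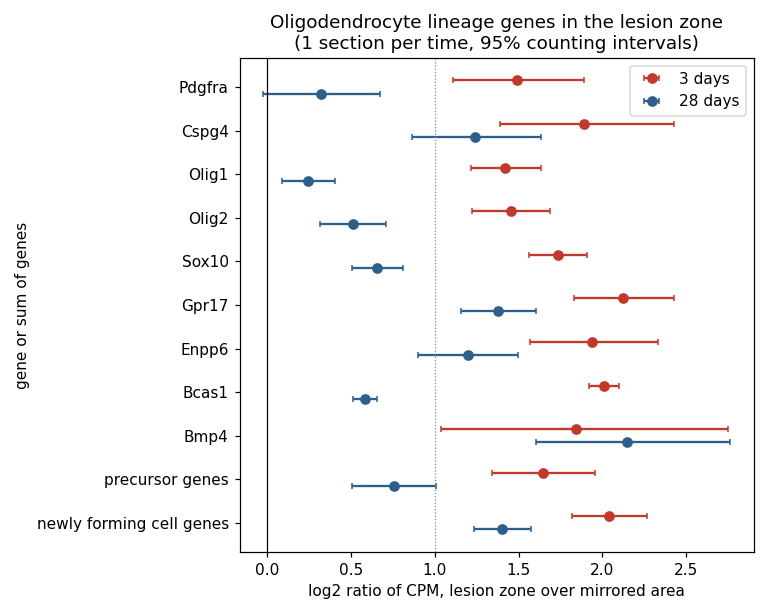
Log2 ratio of CPM in the lesion zone over the mirrored area for each gene and for both sums of genes (points) with 95% counting intervals (bars), on day 3 in red and on day 28 in blue, 1 section each; the dotted line marks 2-fold. On day 3 all members lie between 1.42 and 2.12, and on day 28 they spread from 0.24 for Olig1 to 2.15 for Bmp4.

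The precursor gene Pdgfra, which encodes the receptor for platelet-derived growth factor A, had 159 UMIs inside the zone and 88 in the mirrored area on day 3, or 35.4 and 12.6 CPM. On day 28 it had 147 and 134 UMIs, or 19.96 and 15.99 CPM. The log2 ratio was thus 1.49 (1.11 to 1.89) early and 0.32 (-0.03 to 0.67) late, and the late interval included 0. Cspg4, which encodes the NG2 proteoglycan of precursors and pericytes, had 110 against 46 UMIs on day 3 and 179 against 86 on day 28. Its level in the zone was 24.5 CPM on day 3 and 24.3 CPM on day 28, and its log2 ratio was 1.89 (1.39 to 2.43) and then 1.24 (0.87 to 1.63). The precursor markers therefore parted on day 28, when Cspg4 kept a raised level in the zone while Pdgfra lay near that of the mirrored area. In a bulk sum of bins, fewer cells of a type and less RNA per cell cannot be told apart.

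Both precursor genes are also used by other cells, Pdgfra by fibroblasts and Cspg4 by mural cells of vessels. The 5 fibroblast genes summed to a log2 ratio of 2.88 on day 3 and 3.13 on day 28, and all 5 were at least 2-fold higher both times. The share of Pdgfra UMIs lying in bins with a fibroblast UMI was 17.0% (11.5 to 23.7) in the zone on day 3, where such bins held 12.6% of all UMIs, and 12.5% (6.41 to 21.3) in the mirrored area, where they held 3.49%. On day 28 it was 25.9% (19.0 to 33.7), against 9.91% of all UMIs, and in the mirrored area it was 5.22% (2.13 to 10.5), against 2.30%. The 9 mural genes summed to 2.10 on day 3 and 0.69 on day 28. Bins with a mural UMI held 38.2% of the Cspg4 UMIs of the zone on day 3, against 35.3% of all UMIs, and 26.8% on day 28, against 21.6%. In the mirrored area such bins held 28.3% (15.99 to 43.5) of them on day 3, against 13.5% of all UMIs, and 23.3% (14.8 to 33.6) on day 28, against 15.04%. With all bins holding a fibroblast or mural UMI left out, Pdgfra had 103 UMIs in the zone against 64 on day 3, a ratio of 1.80, and 86 against 109 on day 28, a ratio of 0.03. Cspg4 had 64 against 33 and 121 against 66, with ratios of 2.06 and 1.24.

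The lineage factors were Olig1 and Olig2, helix-loop-helix proteins that specify the lineage, and Sox10, a high mobility group factor that drives it onward. The intervals of their ratios overlapped on day 3, but those of Olig1 and Sox10 did not on day 28. On day 3 Olig1 had 115 CPM in the zone and 43.0 in the mirrored area, Olig2 had 92.6 and 33.8, and Sox10 had 195 and 58.5. Their log2 ratios were 1.42, 1.45 and 1.73. On day 28 the zone and mirror levels were 89.6 and 75.6 CPM for Olig1, 64.6 and 45.3 for Olig2, and 116 and 73.9 for Sox10, with ratios of 0.24 (0.09 to 0.40), 0.51 (0.31 to 0.71) and 0.66 (0.51 to 0.81). Counted per bin, Olig1 had 47.3 UMIs per 1000 bins in the zone on day 28 and 49.2 in the mirrored area, which turned its small difference to -0.059. Summed, the 3 factors had a ratio of 0.47 on day 28, below the 0.75 of the precursor genes and the 1.40 of the newly forming cell genes.

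Genes of newly forming oligodendrocytes were higher in the zone at both times. Gpr17 had 361 UMIs in the zone and 129 in the mirrored area on day 3, or 80.3 and 18.4 CPM, and 550 against 241 on day 28, or 74.7 and 28.8 CPM. Enpp6 had 202 against 82 UMIs on day 3 and 284 against 141 on day 28. In CPM the zone level of Enpp6 was 44.96 and 38.6, and its mirrored level 11.7 and 16.8. For both genes the mirrored level was thus the one that was higher in the later section. The log2 ratio of Gpr17 was 2.12 (1.83 to 2.43) on day 3 and 1.38 (1.16 to 1.60) on day 28, and that of Enpp6 was 1.94 (1.56 to 2.33) and 1.19 (0.90 to 1.499). Per 1000 bins Gpr17 had 47.6 UMIs in the zone and 17.0 in the mirrored area on day 3, and 39.4 and 18.7 on day 28.

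Bmp4 encodes a secreted bone morphogenetic protein that committed precursors switch on, and it was the only member whose ratio was larger on day 28. It had 42 UMIs in the zone and 18 in the mirrored area on day 3, or 9.35 and 2.57 CPM, and 130 against 33 on day 28, or 17.7 and 3.94 CPM. The ratios were 1.84 (1.04 to 2.75) and 2.15 (1.60 to 2.76), and their intervals overlapped. Against the whole opposite side the ratio on day 3 was 0.43, as that side had 7.03 CPM in all. Of its UMIs in the zone, 45.2% (29.8 to 61.3) on day 3 and 25.4% (18.2 to 33.8) on day 28 lay in bins with a fibroblast UMI. Such bins held 12.6% and 9.91% of all zone UMIs. In the mirrored area the Bmp4 shares were 22.2% (6.41 to 47.6) and 15.2% (5.11 to 31.9), against 3.49% and 2.30% of all UMIs. The intervals overlapped those of the zone. On day 28 73 of the 130 UMIs remained when bins with fibroblast or mural UMIs were left out, against 20 of 33 in the mirrored area.

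Upstream sequence from RefSeq windows is shown for Cspg4, Enpp6 and Bmp4, members at least 2-fold higher at both times, so that a reader can see what lies before them. Gpr17 was also at least 2-fold higher at both times, but its window is not reported here. Each window is the 250 bases before the annotated start in build GRCm38.p6, read 5′ to 3′ on the strand of the gene, at chr9:56864854-56865103 (plus strand), chr8:46986637-46986886 (plus strand) and chr14:46390670-46390919 (minus strand). For Enpp6 this is the start of its curated transcript, which lies inside the annotated gene because predicted transcripts begin farther upstream. Capitals mark the core motif of SOX factors, ACAAAG or ACAATG, on either strand, which 25.2% of 32851 such windows hold. The motif was found 1 time before Enpp6 and 0 times before Cspg4 and Bmp4. The E-box CAGCTG, held by 13% of windows, had 0 matches in these 3.
Cspg4: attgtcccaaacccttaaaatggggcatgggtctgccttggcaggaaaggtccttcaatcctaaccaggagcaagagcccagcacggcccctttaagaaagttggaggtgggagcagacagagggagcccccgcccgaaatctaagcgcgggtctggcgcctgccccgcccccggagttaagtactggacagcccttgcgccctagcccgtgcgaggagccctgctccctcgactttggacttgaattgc
Enpp6: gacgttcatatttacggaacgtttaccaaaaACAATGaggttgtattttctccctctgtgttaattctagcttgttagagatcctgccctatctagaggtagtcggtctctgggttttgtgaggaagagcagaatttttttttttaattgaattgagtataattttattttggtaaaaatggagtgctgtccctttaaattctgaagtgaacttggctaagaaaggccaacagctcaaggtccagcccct
Bmp4: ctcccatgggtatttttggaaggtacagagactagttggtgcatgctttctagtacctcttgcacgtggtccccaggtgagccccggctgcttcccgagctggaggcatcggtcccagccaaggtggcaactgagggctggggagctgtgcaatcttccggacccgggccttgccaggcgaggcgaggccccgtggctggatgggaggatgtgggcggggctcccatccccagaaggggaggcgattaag

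Bcas1, which encodes a protein of newly myelinating and mature oligodendrocytes, rested on the most UMIs. It had 3790 UMIs in the zone and 1469 in the mirrored area on day 3, or 844 and 210 CPM, and 3508 against 2666 on day 28, or 476 and 318 CPM. The log2 ratio was 2.01 (1.92 to 2.10) early and 0.58 (0.51 to 0.66) late. The 12 genes of mature oligodendrocytes and myelin were also closer to the mirrored area late. Of them 10 were at least 2-fold higher on day 3 and 0 on day 28, with medians of 1.33 and 0.16. Summed, they gave 1.42 (1.40 to 1.44) on day 3 and 0.12 (0.10 to 0.13) on day 28, below Bcas1 at both times.

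The question of whether the lesion shifted the balance between precursors and newly forming cells was put to the ratio of their summed UMIs, compared between places and not between genes. On day 28 there were 964 UMIs of Gpr17, Enpp6 and Bmp4 for 326 of Pdgfra and Cspg4 in the zone, a ratio of 2.96, and 415 for 220 in the mirrored area, a ratio of 1.89. The log2 ratio of these ratios was 0.65 (0.34 to 0.95). It was 1.08 over Pdgfra alone and 0.16 over Cspg4 alone, so it rested on Pdgfra, and it was -0.030 if Bcas1 was counted with the newly forming cell genes. Over the lineage factors the newly forming cell genes were higher by 0.93 (0.73 to 1.12).

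On day 3 the balance was smaller and changed sign under some settings. The zone held 605 UMIs of newly forming cell genes for 269 of precursor genes, a ratio of 2.25, and the mirrored area 229 for 134, a ratio of 1.71, which gave a log2 value of 0.40 (0.01 to 0.78). With the midline moved by 256 µm it was 0.55 toward lower columns and -0.20 toward higher columns, and with the opposite side weighted by myelin share it was -0.11. Under the other alternatives it stayed above 0, from 0.057 to 0.66. Both gene groups stood above the mirrored area with the midline at higher columns, at 1.68 for the newly forming cell genes and 1.88 for the precursor genes, and with the weighting, at 0.85 and 0.96.

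The fall of the newly forming cell genes with distance from the lesion differed between the times, and the precursor genes fell as well. On day 3 their log2 ratio to the mirrored place was 2.04 in the zone, 1.36 (1.13 to 1.60) within 250 µm of it, 0.61 (0.33 to 0.89) from 250 to 500 µm, 0.23 (-0.02 to 0.49) from 500 to 1000 µm and -0.21 (-0.40 to -0.01) from 1000 to 2000 µm. On day 28 it was 1.40 in the zone but 0.26 (0.04 to 0.48) within 250 µm and -0.17, 0.01 and -0.36 (-0.56 to -0.15) in the farther bands. The late sum within 250 µm joined Bmp4 at 1.91 (1.32 to 2.56) with Gpr17 at 0.15 (-0.15 to 0.45) and Enpp6 at -0.54 (-1.03 to -0.08). In CPM the early difference was graded over 500 µm, and the late one stopped near the edge of the zone. The precursor genes on day 3 gave 1.64 in the zone, 0.97 (0.68 to 1.25) within 250 µm and 0.23, 0.30 and 0.0006 beyond. On day 28 they gave 0.75, then 0.08 (-0.24 to 0.39) within 250 µm and -0.05, 0.02 and -0.21 beyond. The balance of newly forming over precursor genes within 250 µm was 0.40 (0.03 to 0.77) on day 3 and 0.18 (-0.21 to 0.58) on day 28. Beyond, it was 0.38 (-0.12 to 0.88), -0.07 and -0.21 early, and -0.12, -0.002 and -0.15 late. Per lineage factor, the sum of newly forming cell genes on day 28, Bmp4 included, stayed above the mirrored place in all outer bands. These values were 0.27 (0.01 to 0.52) within 250 µm, then 0.52 (0.22 to 0.83), 0.28 (0.02 to 0.55) and 0.27 (0.02 to 0.52). On day 3 they were 0.47 (0.22 to 0.72) in the zone, 0.57 (0.31 to 0.84) within 250 µm and 0.39 (0.07 to 0.71) from 250 to 500 µm. These intervals overlapped, so per lineage factor no early grading was seen out to 500 µm. Farther out the early values were 0.17 (-0.12 to 0.46) and -0.13 (-0.36 to 0.09). The bands also differed from the mirrored ones in myelin transcripts. On day 3 the myelin genes were at 0.79 within 250 µm and between -0.03 and 0.06 beyond, and on day 28 they were at -0.30 within 250 µm and at -1.01, -0.62 and -0.58 in the farther bands.

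Single genes filled in this picture. Gpr17 on day 3 had 40.4 CPM within 250 µm of the zone and 15.1 at the mirrored place, and 38.1 against 18.7 CPM from 250 to 500 µm, a ratio of 1.02 (0.66 to 1.40) where Enpp6 (-0.01) and Bcas1 (-0.12) lay near 0. From 500 to 1000 µm Gpr17 still had 31.6 against 22.2 CPM, a ratio of 0.51 (0.19 to 0.84), and from 1000 to 2000 µm it was lower than at the mirrored place, at -0.33 (-0.57 to -0.09). On day 28 Gpr17 dropped from 74.7 CPM in the zone to 23.7 CPM within 250 µm, where the mirrored place had 21.4. Enpp6 dropped from 38.6 to 8.24 CPM over the same step and lay below its mirrored level of 12.0. Pdgfra on day 3 had 28.4 CPM against 15.7 within 250 µm and 13.4 against 10.6 from 250 to 500 µm, and on day 28 none of its bands differed from the mirrored place by more than the counting interval.

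Bmp4 did not stop at the edge. Within 250 µm of the zone it had 87 UMIs against 40 on day 3, a ratio of 1.55 (1.01 to 2.14), and 82 against 32 on day 28, a ratio of 1.91 (1.32 to 2.56). In that late band 40.2% (29.6 to 51.7) of its UMIs lay in bins with a fibroblast UMI, where such bins held 6.29% of all UMIs. At the mirrored place the share was 3.12% (0.08 to 16.2), or 1 of 32 UMIs, against 1.73% of all UMIs. The fibroblast genes had a ratio of 1.70 in the band. On day 3 the share was 47.1% (36.3 to 58.1) in that band and 14 of 40 UMIs (20.6% to 51.7%) at the mirrored place, with overlapping intervals. Such bins then held 16.3% of all UMIs in the band and 3.93% at the mirrored place. The lineage factors and Bcas1 were lower on day 28 from 250 to 500 µm than at the mirrored place, and closer to it at the edge. Within 250 µm of the zone Sox10 gave 0.07 (-0.14 to 0.27), Olig1 -0.06 (-0.27 to 0.14), Olig2 -0.04 (-0.29 to 0.22) and Bcas1 -0.12 (-0.22 to -0.02), beside -0.30 for the myelin genes. From 250 to 500 µm Sox10 had 25.8 CPM against 43.1, a ratio of -0.74 (-1.01 to -0.47), and Bcas1 had 88.7 against 161, a ratio of -0.86 (-1.004 to -0.72), while the myelin genes stood at -1.01. The precursor genes in that band gave -0.05 (-0.39 to 0.28), so precursor RNA per lineage factor was higher there, by 0.64 (0.27 to 1.01). The lower values were not limited to that band, since from 1000 to 2000 µm the lineage factors gave -0.63 (-0.77 to -0.49), Bcas1 -0.67 (-0.81 to -0.52) and precursor RNA per lineage factor 0.43 (0.15 to 0.71).

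**Figure D2:**
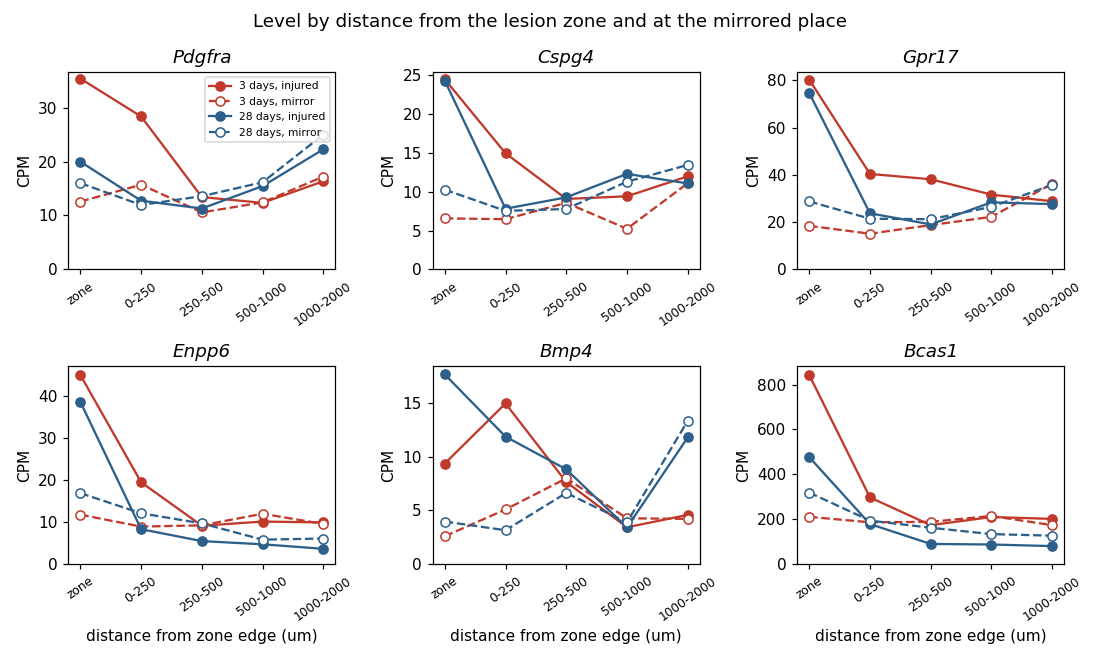
CPM of 6 members (vertical axes, each from 0) in the lesion zone and in 4 bands of distance from its edge (horizontal axis, µm), on the injured side (filled points, solid lines) and at the mirrored place (open points, dashed lines), on day 3 in red and on day 28 in blue. On day 28 Gpr17 falls close to the mirrored level and Enpp6 below it within 250 µm, while on day 3 Gpr17 stays above it out to 1000 µm.

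Over whole sides the members' log2 ratios, injured over opposite, ran from 0.49 for Bmp4 to 0.99 for Bcas1 on day 3. Only 2.08 mm of the injured side lay on the capture area then, with 39116 bins against 80501 opposite. The sides thus covered unequal extents of tissue, and no share of all genes is given for them. On day 28, with 3.84 mm captured, Bmp4 was higher by 0.85 (0.63 to 1.08), Gpr17 by 0.39 (0.28 to 0.51), Cspg4 by 0.38 (0.20 to 0.57) and Enpp6 by 0.25 (0.06 to 0.45). Pdgfra, Sox10, Bcas1 and Olig2 had intervals that included 0, at 0.04, 0.03, -0.04 and -0.07, and Olig1 was lower, at -0.16 (-0.25 to -0.07).

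**Figure D3:**
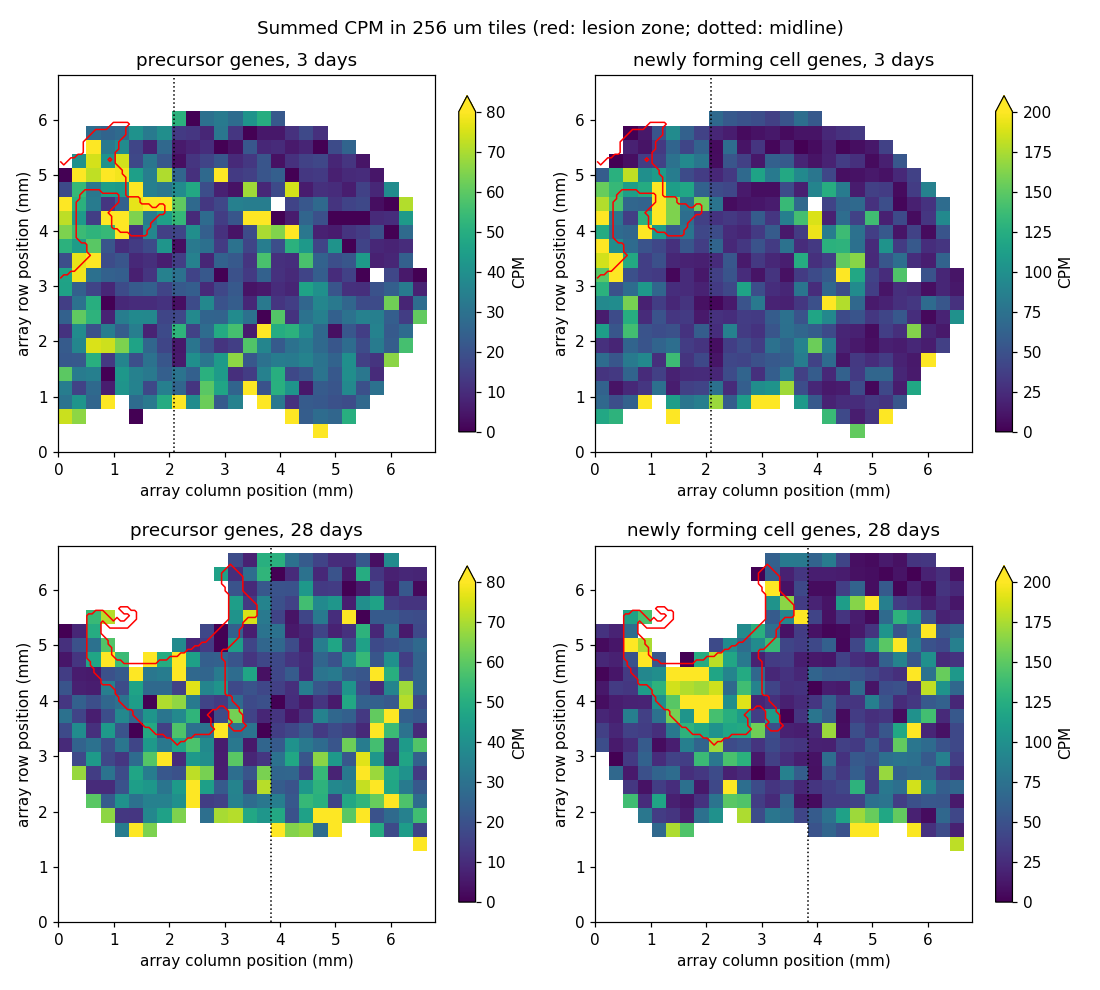
Summed CPM of the precursor genes Pdgfra and Cspg4 (left) and of the newly forming cell genes Gpr17, Enpp6 and Bmp4 (right) in tiles of 256 µm, on day 3 (top) and 28 days (bottom), over the position on the array in mm; red lines outline the lesion zone and dotted lines the midline. On day 28 the newly forming cell genes had 131 CPM in the zone as a whole and 49.5 in the mirrored area. The precursor genes, at 44.3 and 26.3 CPM, look more scattered, but they rest on fewer UMIs. Colour scales differ between left and right.

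Most ratios of the zone differed between tissue rich and tissue poor in myelin transcripts. Tiles were called rich in myelin if their share of 6 myelin genes exceeded the 80th percentile found opposite the lesion. In myelin-poor tissue on day 28 the newly forming cell genes had 116 CPM in the zone and 34.3 in the mirrored area, a log2 ratio of 1.75 (1.54 to 1.97), with 1.58 for Gpr17, 1.87 for Enpp6 and 2.32 for Bmp4. The precursor genes there gave 1.17 (0.88 to 1.48), Cspg4 1.69 (1.24 to 2.18) and Pdgfra 0.74 (0.33 to 1.15). In myelin-rich tissue the newly forming cell genes gave 0.48 (0.21 to 0.75). Of these, Gpr17 gave 0.67 (0.29 to 1.08), Enpp6 0.11 (-0.30 to 0.53) and Bmp4 1.38 (0.21 to 2.91) from 25 against 7 UMIs. The precursor genes in myelin-rich tissue were lower than in the mirrored area, at -0.59 (-1.09 to -0.09), or -0.37 (-0.81 to 0.05) against myelin-rich tissue of the whole opposite side. Cspg4 gave -0.10 (-0.81 to 0.63) against the mirrored area, so the lower value came from Pdgfra. Pdgfra had 26 UMIs in myelin-rich zone tissue against 43, or 14.8 and 31.8 CPM, a ratio of -1.10 (-1.87 to -0.37). The overall value of Pdgfra near 0 on day 28 thus joined a higher level in myelin-poor tissue with a lower one in myelin-rich tissue. The classes rest on myelin transcripts, whose own ratio was -0.49 in myelin-rich tissue, 0.31 in myelin-poor tissue and 0.12 in the zone as a whole, and the class that a tile had before the impact is not known.

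On day 3 the lineage factors differed less in myelin-rich than in myelin-poor tissue. Within myelin-rich tissue Olig1, Olig2 and Sox10 gave 0.21 (-0.09 to 0.53), 0.30 (-0.05 to 0.67) and 0.20 (-0.01 to 0.43), against 1.42 to 1.73 overall. In myelin-poor tissue they gave 1.19 (0.87 to 1.505), 1.24 (0.88 to 1.59) and 1.37 (1.06 to 1.68). Against myelin-rich tissue of the whole opposite side the values were 0.21 (0.03 to 0.39), 0.46 (0.25 to 0.66) and 0.55 (0.42 to 0.68), with intervals above 0. Gpr17 kept a ratio of 1.22 (0.75 to 1.75), with 112 CPM against 47.5, and Pdgfra one of 0.82 (0.14 to 1.62). In myelin-poor tissue every member but Enpp6, at 0.69 (-0.14 to 1.47), had an interval above 0 against the mirrored area. Cspg4 was at 1.99 (1.31 to 2.70) and Bmp4 at 2.53 (1.52 to 3.69) from 25 against 12 UMIs. No share of all genes is given for this class. Against myelin-poor tissue of the whole opposite side Bmp4 gave 0.73 (0.06 to 1.28) and Enpp6 1.12 (0.40 to 1.71), above 0. In myelin-rich tissue Bmp4 gave -0.03 (-1.37 to 1.67) against the mirrored area and 0.21 (-0.72 to 1.03) against the opposite side. The myelin genes themselves gave -0.15 in myelin-rich and 0.69 in myelin-poor tissue against the mirrored area, so the classes were not matched in myelin. Bcas1 gave 0.71 (0.59 to 0.83) in myelin-rich tissue.

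**Figure D4:**
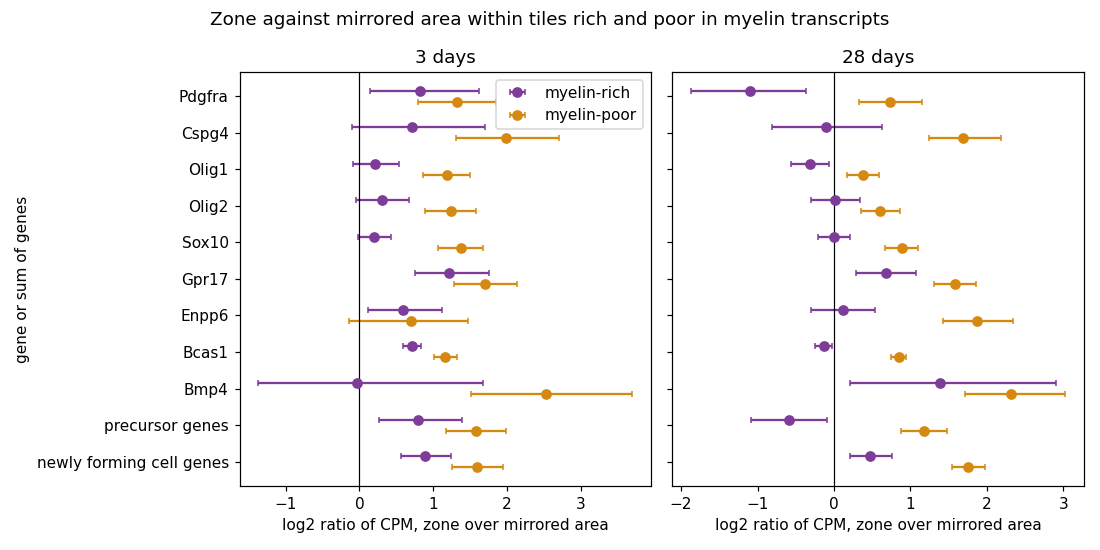
Log2 ratio of CPM in the lesion zone over the mirrored area within tiles rich (purple) and poor (orange) in myelin transcripts, on day 3 (left) and 28 days (right), with 95% counting intervals. On day 28 every member lies further right in myelin-poor than in myelin-rich tissue, and Pdgfra changes side, from -1.10 to 0.74.

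The zone was not even from depth to surface. It was split at its median row into a deep and a dorsal part. On day 3 Gpr17 gave 2.42 (2.04 to 2.83) in the deep part and 1.55 (1.08 to 2.03) in the dorsal part, while Olig2 gave 0.94 (0.62 to 1.27) and 1.98 (1.64 to 2.34). On day 28 Enpp6 gave 0.60 (0.17 to 1.04) deep and 1.79 (1.35 to 2.27) dorsal, and Gpr17 gave 1.71 and 1.13. The fibroblast genes lay mostly in the dorsal part on day 28, at 3.43 against 0.28 deep. In the deep part fibroblast genes were near their mirrored level. Gpr17 had 274 UMIs against 118 there, and Bmp4 had 34 against 13, a ratio of 1.85 (0.92 to 2.93). The cell source of these UMIs was not tested.

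Bins that held a member were examined for the others, since a 16 µm bin is near the size of a cell but can hold parts of several. On the opposite side on day 28, bins with a Gpr17 UMI had 70.7 CPM of Pdgfra against 15.1 in bins without, a log2 ratio of 2.24 (1.83 to 2.59), 42.4 against 9.33 CPM of Enpp6, a ratio of 2.20 (1.67 to 2.66), and 38.1 against 5.22 CPM of Bmp4, a ratio of 2.88 (2.31 to 3.38). Gpr17 thus shared bins with genes on both sides of it in the lineage. Pdgfra and Enpp6, at either end, did not share bins beyond counting error, at -0.24 (-2.003 to 0.86) from 5 UMIs. Bins with Enpp6 had more myelin transcripts, at 1.41 (1.36 to 1.45), and bins with Pdgfra had fewer, at -0.28 (-0.33 to -0.23).

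In the lesion zone on day 28 Bmp4 bins, 121 in all, held 475 CPM of Gpr17 against 67.7 in other bins, a ratio of 2.82 (2.40 to 3.20), and 135 against 36.9 CPM of Enpp6, a ratio of 1.91 (1.07 to 2.57). They also held more fibroblast transcripts, at 1.75 (1.49 to 1.98). Gpr17 bins held fewer of these, at -1.23 (-1.65 to -0.87), so Bmp4 was found both beside Gpr17 and beside fibroblast genes. Pdgfra bins in the zone had fibroblast transcripts at 2.45 (2.25 to 2.64), Cspg4 at 1.85 (0.76 to 2.66) and Gpr17 at 1.23 (0.53 to 1.80). On day 3 the zone's 40 Bmp4 bins held 6 Gpr17 UMIs, a ratio of 1.15 (-0.42 to 2.18), and had fibroblast transcripts at 2.87 (2.62 to 3.11). With each bin thinned to 300 UMIs, the late Bmp4 bins of the zone gave 2.05 (-0.01 to 3.26) for Gpr17 from 4 UMIs, and those of the opposite side gave 3.05 (1.49 to 4.07).

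**Figure D5:**
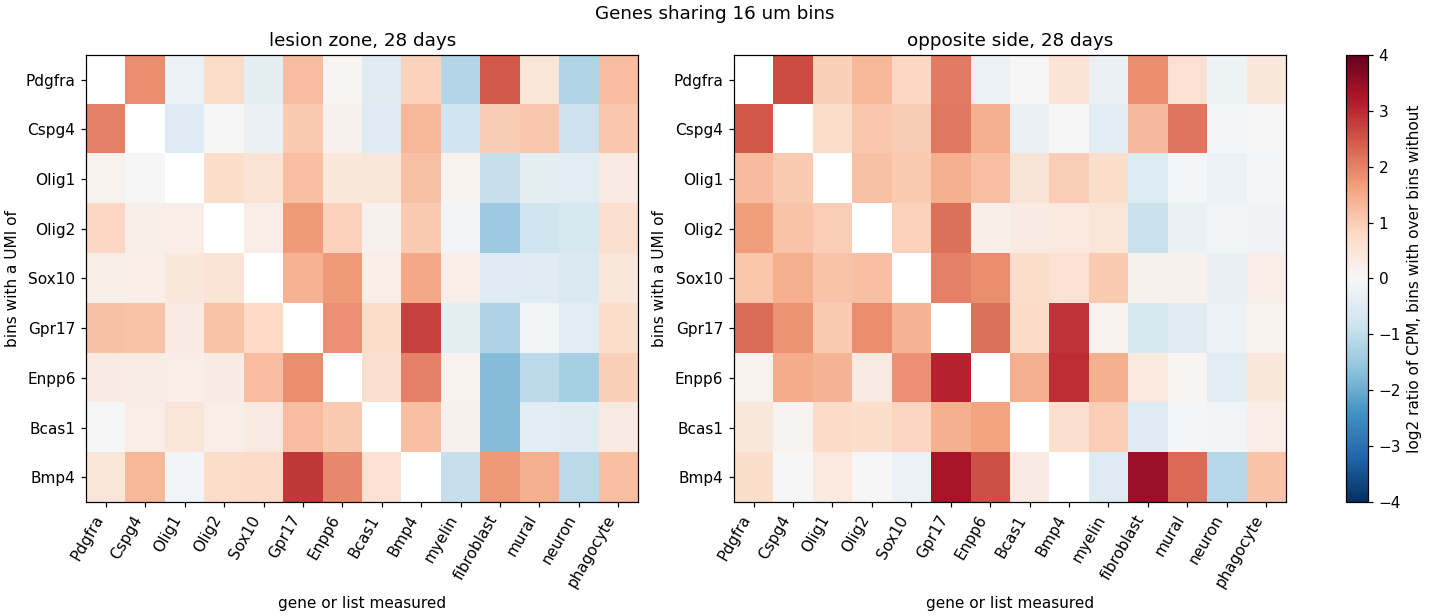
Log2 ratio of CPM of each gene or list (columns) in bins with a UMI of each member over bins without one (rows) on day 28, in the lesion zone (left) and on the opposite side (right); red is higher and blue lower, and white squares on the diagonal hold no value. Bmp4, Gpr17 and Enpp6 share bins in both areas, and Bmp4 and Pdgfra bins carry fibroblast transcripts in both.

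Other genes of the same stages gave a mixed account. Of 12 further precursor genes, 6 were at least 2-fold higher in the zone on day 3 and 4 on day 28, with 0 lower at either time and medians of 0.996 and 0.546. Vcan, a matrix proteoglycan, gave 2.34 and 1.06, and Matn4, a matrilin, gave 1.57 and 2.28, with 291 UMIs against 68 on day 28. C1ql1, a secreted C1q-like protein, gave 1.09 and 1.54. Neu4, a sialidase, gave 1.74 and 0.79. The rest of the list reached down to -0.09 on day 3 and -0.61 on day 28. Of 8 further differentiation genes with at least 20 UMIs, 4 were 2-fold higher and 1 lower on day 3, and 1 was higher and 1 lower on day 28. Nkx2-2, a factor of differentiating precursors, gave 1.95 and 0.65, Zfp488, a zinc finger factor of the lineage, gave 1.83 and 0.84, and Itpr2, a calcium release channel of newly formed cells, gave 1.62 and 1.46. Tcf7l2, at -1.79 and -1.03, is also strongly expressed by thalamic neurons.

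Among 6 further factors of the lineage, 4 were at least 2-fold higher and 1 lower on day 3, and 0 were higher and 1 lower on day 28. Myrf, which switches on myelin genes, gave 1.79 (1.60 to 1.98) and 0.38 (0.21 to 0.54), close to the course of Bcas1. Nkx6-2 and Sox8, factors of the lineage, gave 1.68 and 1.14 on day 3 and 0.69 and 0.25 on day 28. Hes5, a Notch target that holds precursors back and is also made by astrocytes, was lower both times, with 22 UMIs against 97 on day 3 and 59 against 250 on day 28, or -1.47 (-2.24 to -0.82) and -1.89 (-2.33 to -1.48).

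Genes that carry or limit the BMP signal gave mixed values. Of 3 other ligands, 0 were 2-fold higher on day 3 and 2 on day 28, when Bmp6 gave 1.86 (1.59 to 2.14) and Bmp7 1.57 (1.23 to 1.92), while Bmp2 gave -0.22 (-0.89 to 0.42). None of the 4 receptor genes differed 2-fold at either time, and their medians were 0.05 and 0.23. The antagonists Bmper and Chrd were lower, at -0.93 and -0.72 on day 3 and -1.18 (-1.59 to -0.80) and -0.97 (-1.74 to -0.26) on day 28. Noggin, encoded by Nog, had 12 UMIs against 62 on day 3, a ratio of -1.68 (-2.76 to -0.82), and 43 against 57 on day 28, a ratio of -0.22. Of 5 BMP targets with enough UMIs, Id1 and Id3 were 2-fold higher on day 3, and Id3 alone on day 28, at 2.37 (2.24 to 2.51) with 2448 UMIs against 537. Id genes and BMP ligands are expressed by astrocytes and vessels as well, and 4 of 5 astrocyte genes were 2-fold higher on day 28. At both times all 5 fibroblast genes were at least 2-fold higher and all 5 neuron genes at least 2-fold lower. Which cells carried these BMP genes was not tested.

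Of 4 ligands of the PDGF receptors, with medians of 0.72 and 0.76, none was 2-fold higher on day 3 and 1, Pdgfb, was on day 28, at 1.19 (0.88 to 1.52). Pdgfa, the ligand of the Pdgfra receptor on precursors, gave 0.78 (0.60 to 0.96) on day 3 and 0.14 (-0.02 to 0.30) on day 28. The 3 proliferation genes had medians of 2.95 and 2.26. Bins of the zone with Pdgfra held more of them than other zone bins, with 364 against 244 CPM on day 3, a ratio of 0.59 (0.09 to 1.03), and on day 28 a ratio of 1.67 (0.23 to 2.66) from 7 UMIs. Gpr17 bins did not, at 0.06 (-0.36 to 0.43) and 0.22 (-1.22 to 1.21).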

How the data were processed

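The authors made the deposited raw UMI count of each probed gene in each 16 µm bin with Space Ranger 4.0.1 (per the file headers) on build mm10 (per the labels), with no normalization. From these counts, a minimum of 100 UMIs per bin removed 1.93% of bins on day 3 and 2.15% on day 28. The lesion zone was drawn on tiles of 64 µm from Cd68, Lyz2, Ctsz, Lgals3, Cd52 and Laptm5, averaged over 5 by 5 tiles, in patches of at least 25 tiles. UMIs were summed over areas and compared as log2 ratios of CPM with a pseudocount of 0.5 UMI and exact conditional binomial intervals. Shares have exact Clopper-Pearson intervals. Probe counts are not compared between genes. The members and all lists were chosen with earlier results of these data known, as were the midline columns. Named were the members, the 3 genes most like each, and up to 4 genes of each list with the largest ratios. A few of the genes this rule names are not reported here. The intervals were tested on simulated data. Alternatives included TMM factors (edgeR 4.0.16), counts per bin, other zones, midlines and references. The software was scipy 1.17.1, numpy 2.4.6, pandas 2.3.3 and matplotlib 3.10.9 under Python 3.11.15.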

Additional observations from a re-analysis of the deposited data

How the results depend on the processing

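No paired analysis was possible because each time had 1 section and the labels give no replicate numbers, so no replicate could be left out either. Of 118 alternative values of the summed groups, their balance and the counts of members, 93 kept within the counting interval of the value in the report (counts within 1.5 times), 22 moved beyond it and 3 changed sign. Counts per bin gave 1.01 for precursor genes and 1.40 for newly forming cell genes on day 3, and 0.45 and 1.10 on day 28, with 2 members at least 2-fold higher and Olig1 at -0.059. The opposite side weighted by myelin share, chosen after seeing the data, gave 0.96, 0.85 and a balance of -0.11 with 2 members 2-fold higher on day 3, and 0.39 and 0.99 with 1 member on day 28. The midline 16 bins higher gave 1.68 for newly forming cell genes and -0.20 for the balance on day 3, and 16 bins lower 2.14 and 0.55. On day 28 the midline 16 bins lower gave 1.11 and 1.66 for precursor and newly forming cell genes, and 16 bins higher 0.74 and 1.26. The whole opposite side gave newly forming cell genes at 1.80 and 1.62. A minimum of 300 UMIs per bin gave 2.39 for them on day 3. On day 28 the precursor value was 0.32 with Pdgfra alone and 1.24 with Cspg4 alone, the newly forming value with Bcas1 was 0.72, and the balance was -0.030 with Bcas1, 1.08 over Pdgfra and 0.16 over Cspg4. TMM shifted all ratios by -0.16 and -0.06. The cause of these moves was not tested. Depth limits Bmp4 most, with 42 and 18 UMIs on day 3.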
